A study of Mus musculus with 4 samples.

Results

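Cells build cholesterol from acetyl-CoA through the mevalonate pathway and then through a chain of sterol intermediates, and build fatty acids from the same precursor. A set of 31 genes was chosen from a written list of the enzymes of both routes, with the proteins that control them. Of these, 30 had a probe set annotated with that gene symbol and no other, and all 30 lay above the filter on low signal, among 13097 genes with such a probe set. Acat2, which condenses acetyl-CoA units, had none and was not analysed here. Each gene is described on its probe set with the highest mean over the 4 arrays, a probe set being several short array probes designed against the same transcript.

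The RNA came from primary mouse embryonic fibroblasts (MEFs), cells taken from embryos and grown in dishes without immortalisation. Wild-type cells and RBP2-/- cells (RBP2-null below) were each represented by 2 independent lines at passage 3, with 1 Affymetrix array a line, and the titles number the lines (1) and (2) within each genotype. RBP2, now named Kdm5a, is a demethylase of H3K4, a histone mark of active promoters. The sources used here give neither the meaning of the numbers, nor which part of Kdm5a was deleted, nor strain and embryonic age. The genotype comparison asks which transcripts differ without the demethylase. The comparison of lines numbered 2 with lines numbered 1 asks which differ by that number on average over the genotypes. Line differences of opposite sign in the genotypes cancel in it. With 2 lines on each side, the p-values rest on the spread among these 4 lines and on no wider set of lines. For each probe set that spread was drawn in part from the other probe sets. An exact permutation test could not give a p below 0.333.

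As background, the transcription factors SREBP-2 and SREBP-1, made from Srebf2 and Srebf1, sit in the endoplasmic reticulum bound to the sterol sensor Scap. When sterol is plentiful, the Insig proteins hold this complex in place, and when sterol runs low it moves to the Golgi, where the factors are cut free and go to the nucleus. SREBP-2 is known mainly for raising genes of cholesterol synthesis and SREBP-1c for raising genes of fatty acid synthesis, usually together with NF-Y and Sp1. Insig1 is itself a target, so that its transcript follows the activity of the pathway.

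The deposited signal had medians of 22.7 and 29.4 for wild-type lines 1 and 2 and of 21.5 and 43.7 for RBP2-null lines 1 and 2, so both arrays of lines numbered 2 were the brighter ones, and the arrays were quantile normalized. All values below are log2(normalized signal + 9) or differences on that scale unless called deposited. The correlation across probe sets of wild-type line 1 with the other arrays lay between 0.927 and 0.928, against up to 0.965 among the others, so that this array stood apart. Fibroblast markers were measured for 12 of 12 genes, all above the filter. Of the adipocyte markers, 2 of 6 measured genes lay above it, Fabp4 and Retn, and Adipoq, Pparg, Cidec and Lep did not. Fabp4 had 6.39 and 6.65 in wild-type lines 1 and 2 and 6.41 and 6.90 in RBP2-null lines 1 and 2. Retn had 6.65, 6.51, 6.59 and 6.52 in the same order. Xist, the RNA made from the inactive X chromosome of female cells, had 10.68 in wild-type line 1 and 10.23 in RBP2-null line 2, against 6.21 in wild-type line 2 and 5.88 in RBP2-null line 1. Each side of both comparisons thus held 1 line with high and 1 with low Xist.

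By line number, the genes of the mevalonate steps stood highest of the pathway's parts. All 6 measured members had estimates above 0 in lines numbered 2, with a median log2 difference of 0.45, against 0.00017 over all 27022 probe sets tested. The 11 sterol steps had a median of -0.0021, with 5 estimates above 0 and 6 below on their brightest probe sets. This contrast depends on the choice of probe set. Over all 22 kept probe sets of the sterol steps the median was 0.26, against 0.54 over the 12 of the mevalonate genes. Counted as 1 sterol arm of 18 genes, the mevalonate steps, the sterol steps and the cholesterol carrier Stard4 had a median of 0.18. The fatty acid arm had a median of 0.049 over 7 members. In limma with Benjamini-Hochberg adjustment over all probe sets, 0 of the 30 members passed an adjusted p of 0.05, where 1 probe set of the whole table, or 0.0037%, passed. At an unadjusted p under 0.05 there were 6 members, 5 higher and 1 lower in lines numbered 2, against 9.4% of all probe sets, 5.13% higher and 4.28% lower.

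The 6 members at an unadjusted p under 0.05 by line number were picked by that p alone, and none passed the adjusted threshold. RefSeq promoter windows of GRCm38.p6 run from 250 bases before to 50 bases after a transcription start. Shown here are the windows of those among the 6 with a single listed start, which leaves out Pmvk. They are Hmgcs1 (chr13:119690101-119690400, plus strand), Idi1 (chr13:8885356-8885655, plus strand), Lss (chr10:76531355-76531654, plus strand), Nsdhl (chrX:72918271-72918570, plus strand) and Insig1 (chr5:28071162-28071461, plus strand). Capitals mark 3 motifs on either strand, a sterol regulatory element TCACNCCAC, the NF-Y box CCAAT, which reads ATTGG on the other strand, and the Sp1 box GGGCGG, which reads CCGCCC on the other strand. In the windows shown, no match overlaps another.
Hmgcs1: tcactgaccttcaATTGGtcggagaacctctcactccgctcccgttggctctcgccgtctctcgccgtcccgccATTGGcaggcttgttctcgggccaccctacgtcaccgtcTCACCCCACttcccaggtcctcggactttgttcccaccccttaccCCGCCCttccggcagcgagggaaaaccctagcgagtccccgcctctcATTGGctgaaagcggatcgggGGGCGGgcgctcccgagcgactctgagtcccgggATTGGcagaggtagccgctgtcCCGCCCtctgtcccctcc
Idi1: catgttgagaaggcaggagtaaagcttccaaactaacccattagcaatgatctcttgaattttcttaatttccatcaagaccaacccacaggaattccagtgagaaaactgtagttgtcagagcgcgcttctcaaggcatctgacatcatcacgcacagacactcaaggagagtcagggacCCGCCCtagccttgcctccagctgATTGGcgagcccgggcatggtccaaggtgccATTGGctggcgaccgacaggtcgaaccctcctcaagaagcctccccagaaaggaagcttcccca
Lss: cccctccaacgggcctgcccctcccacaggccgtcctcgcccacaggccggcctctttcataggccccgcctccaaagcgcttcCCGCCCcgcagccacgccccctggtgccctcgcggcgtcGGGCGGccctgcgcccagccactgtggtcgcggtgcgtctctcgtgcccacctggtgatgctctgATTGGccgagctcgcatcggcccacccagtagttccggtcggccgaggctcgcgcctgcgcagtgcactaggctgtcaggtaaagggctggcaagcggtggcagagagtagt
Nsdhl: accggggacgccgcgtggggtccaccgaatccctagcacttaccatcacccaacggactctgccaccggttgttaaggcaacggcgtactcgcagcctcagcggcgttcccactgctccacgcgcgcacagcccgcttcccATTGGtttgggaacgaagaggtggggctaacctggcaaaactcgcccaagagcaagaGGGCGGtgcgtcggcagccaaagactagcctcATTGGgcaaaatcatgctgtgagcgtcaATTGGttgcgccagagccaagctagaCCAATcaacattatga
Insig1: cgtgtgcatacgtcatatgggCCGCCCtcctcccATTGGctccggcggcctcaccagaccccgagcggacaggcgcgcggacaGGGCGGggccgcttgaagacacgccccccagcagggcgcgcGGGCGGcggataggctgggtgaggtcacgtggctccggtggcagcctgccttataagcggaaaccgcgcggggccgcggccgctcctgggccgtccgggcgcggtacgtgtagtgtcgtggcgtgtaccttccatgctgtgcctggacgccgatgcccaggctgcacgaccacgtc

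The form TCACNCCAC of the sterol element was found in the Hmgcs1 window alone, 137 bases before the start, out of 32 windows of 24 members. It was in 1.24% of all 32851 windows. Other forms of the element and sequence outside the windows were not searched. CCAAT was found in 20 of these 32 windows, against 37.4% of all windows, and GGGCGG in 24 of 32, against 35.7%. By part of the pathway, CCAAT was in 5 of 7 windows of mevalonate genes, 9 of 11 of sterol steps, 5 of 10 of regulators and 1 of 4 of the fatty acid arm. The mevalonate windows include that of Acat2, which had no probe set and holds no CCAAT. Fdps, Fdft1, Sqle, Stard4, Fads1, Scd1 and Scd2 had no listed window. Nsdhl, which differed in the opposite direction from the other members shown, holds 4 CCAAT boxes and 1 GGGCGG box. These are matches of letters and not measured binding sites.

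Pmvk, phosphomevalonate kinase, had the smallest p of the members. Its values were 6.25 in wild-type line 1, 6.93 in wild-type line 2, 6.31 in RBP2-null line 1 and 7.22 in RBP2-null line 2. Both lines numbered 2 lay above both lines numbered 1, by a log2 difference of 0.79, or 1.73-fold. The standard error was 0.25, the 95% interval ran from 0.23 to 1.36 and the limma adjusted p was 0.380. Leaving out single arrays moved the difference between 0.65 and 0.94.

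Hmgcs1 makes HMG-CoA, the substrate of the step at which the pathway is controlled most tightly. Its brightest probe set had 10.44 and 10.61 in wild-type lines 1 and 2 and 9.84 and 10.61 in RBP2-null lines 1 and 2. The lines numbered 2 were above the others by 0.47 with a standard error of 0.20, and most of that difference lay in the RBP2-null pair, with 0.77 against 0.17 in the wild-type pair. The 3 dimmer kept probe sets of Hmgcs1 had 0.57, 0.78 and 0.82, with standard errors of 0.14, 0.18 and 0.17, so that all 4 pointed the same way. Without RBP2-null line 1 the brightest probe set had 0.17, and without wild-type line 1 it had 0.77 and a limma adjusted p of 0.0492, where 226 probe sets of the table passed. Lines numbered 1 were then a single array, assumed to vary like the lines numbered 2.

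Idi1 turns isopentenyl diphosphate into its isomer, the building block of longer chains. It had 8.83 and 9.23 in wild-type cells, against 8.80 and 9.15 without RBP2, a line difference of 0.37 with a standard error of 0.16 that was alike in the pairs, with 0.40 in wild type and 0.35 in RBP2-null cells. A dimmer Idi1 probe set gave 0.55 (standard error 0.19). Mvk and Mvd, which act before and after Pmvk, had line differences of 0.44 and 0.54, with intervals from -0.085 to 0.96 and from -0.11 to 1.19. The groups of lines did not overlap for either gene, but another Mvk probe set had -0.08. Fdps, which joins isoprene units to farnesyl diphosphate, had 0.10 with an interval from -0.26 to 0.47, and its lines overlapped.

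**Figure D1:**
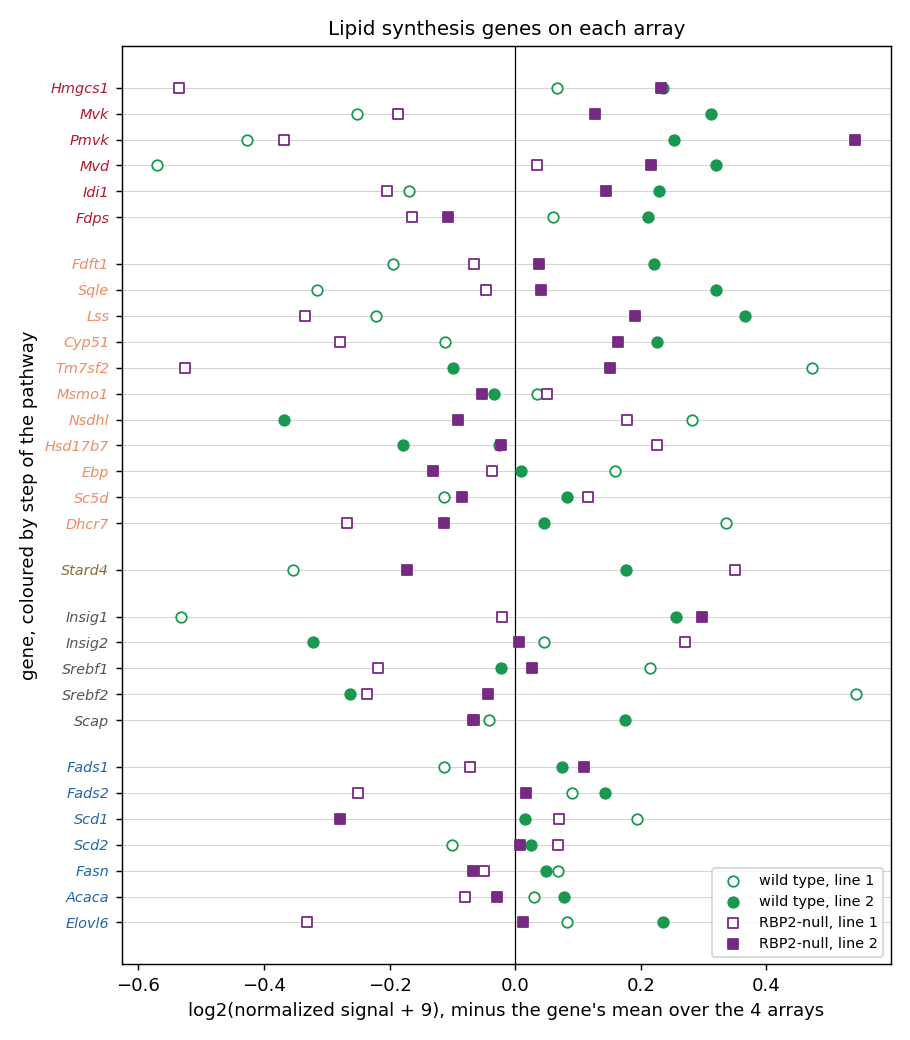
Values of the 30 members on each array, as log2(normalized signal + 9) minus the gene's mean over the 4 arrays, with circles for wild type, squares for RBP2-null, open symbols for line 1 and filled symbols for line 2. From Hmgcs1 to Idi1 and from Fdft1 to Cyp51 the filled symbols lie to the right of the open ones, whereas those of Nsdhl lie to the left.

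Among the sterol steps, Fdft1, Sqle, Lss and Cyp51 act in sequence from farnesyl diphosphate through squalene to lanosterol and its demethylation. Their line differences were 0.26, 0.36, 0.56 and 0.39, and for each of the 4 genes both lines numbered 2 were above both lines numbered 1, as for 20.2% of all probe sets. Lss, lanosterol synthase, had 7.42 and 8.01 in wild-type cells, against 7.31 and 7.83 without RBP2. Its difference of 0.56 had a standard error of 0.20, a limma adjusted p of 0.449 and a size of 0.59 within wild type and 0.53 within RBP2-null cells. A dimmer Lss probe set had 0.98, and another had -0.26 with a standard error of 0.38. For Sqle the pairs were less alike, with 0.63 in wild type and 0.088 in RBP2-null cells. Other kept probe sets of Fdft1 had 0.65 and 0.91, and those of Cyp51 had 0.58 and 0.73, in the same direction as the brightest.

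Of the enzymes after Cyp51, Tm7sf2, a reductase of the sterol ring, had a line difference of 0.052 with an interval from -0.77 to 0.87, and the other 6 had estimates below 0 on their brightest probe sets. Early and late steps were not tested against each other. Nsdhl, an X-linked dehydrogenase that helps to remove methyl groups from the sterol ring, had 9.61 and 8.96 in wild-type lines 1 and 2 and 9.51 and 9.24 in RBP2-null lines 1 and 2. Both lines numbered 2 were lower, with a log2 difference of -0.46, a standard error of 0.16, an interval from -0.84 to -0.081 and a limma adjusted p of 0.449. The lines with high Xist were the highest and the third of the 4 in Nsdhl. Msmo1 and Hsd17b7, partners of Nsdhl in the removal of methyl groups, had -0.086 and -0.20, and the dimmer Hsd17b7 probe sets had 0.075, -0.14 and 0.33. Ebp, Sc5d and Dhcr7, which shift and reduce double bonds of the ring, had -0.12, -0.0021 and -0.067, with all 3 intervals reaching at least 0.33 on the upper side. Dimmer Sc5d probe sets had 0.25 and 0.54.

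Over every kept probe set of the mevalonate genes, 11 of 12 had a line difference above 0, as had 13516 of all 27022 probe sets. Of the 11, 8 had an unadjusted p under 0.05, among them all 4 of Hmgcs1 and both of Idi1. Over all probe sets, 5.13% were higher and 4.28% lower at that p. For the sterol steps 14 of 22 lay above 0, with 4 higher and 1 lower at that p. In the fatty acid arm 11 of 15 lay above 0, with 1 at that p, which was the dimmer Fads2 probe set at 0.62 with a standard error of 0.18. Probe sets of 1 gene read the same RNA and are not replicates. Of the 18 members with several kept probe sets, 8 had all of them in 1 direction by line number, against 2 by genotype. No such count was made for other genes. Over all probe sets, groups did not overlap for 41% by line number and 29.5% by genotype.

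**Figure D2:**
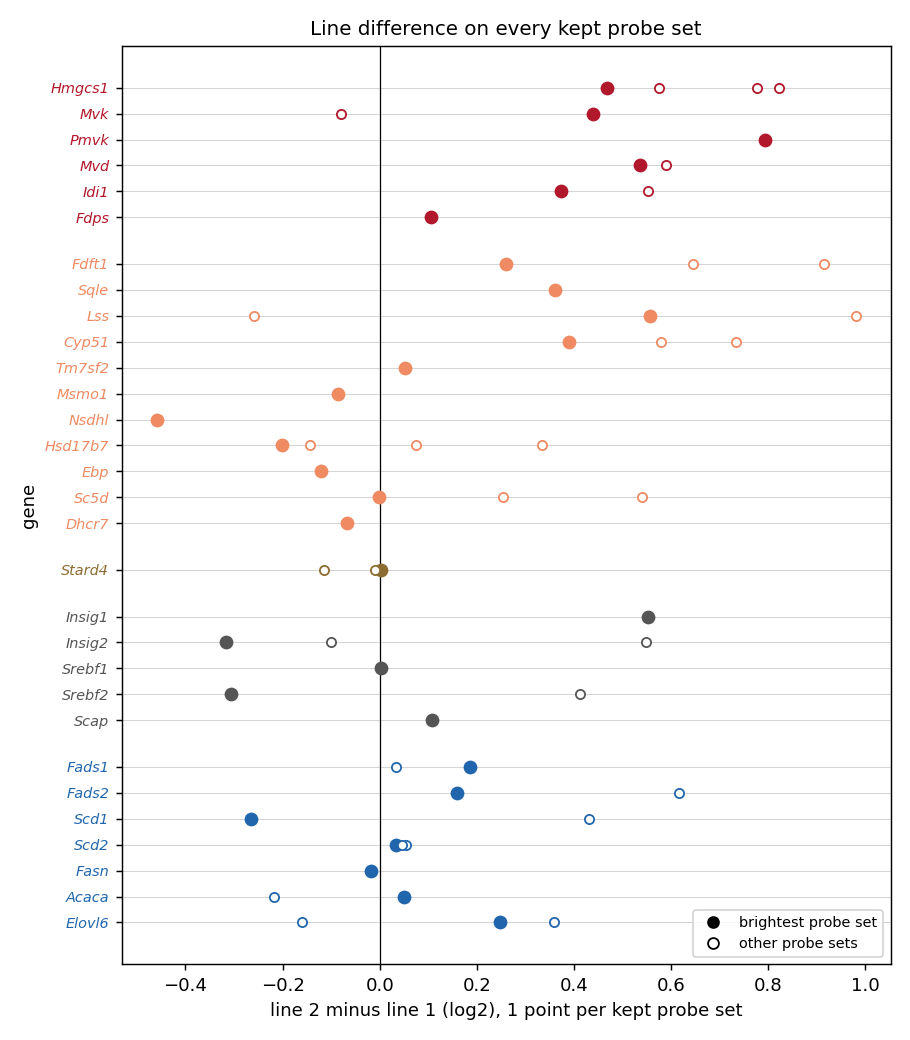
Line difference (lines numbered 2 minus lines numbered 1, log2) for each kept probe set of each member, with the brightest probe set filled and the others open. All 4 probe sets of Hmgcs1 lie to the right of 0, whereas the probe sets of Srebf2 and Scd1 lie on both sides.

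Of the regulators, Insig1 alone had a line interval that left out 0. Insig1, the feedback protein that retains the SREBP complex, had 8.24 and 9.03 in wild-type lines 1 and 2 and 8.75 and 9.07 in RBP2-null lines 1 and 2. Lines numbered 2 were higher by 0.55 (standard error 0.20, limma adjusted p of 0.453). It was 0.79 within wild type and 0.32 within RBP2-null cells, and without RBP2-null line 1 it was 0.81 (limma adjusted p of 0.0373), where 1271 probe sets of the table passed and lines numbered 1 were again a single array, assumed to vary like the others. Without wild-type line 1 it was 0.30. Insig2, the related retention protein, had 7.86 and 7.49 in wild-type cells, against 8.08 and 7.82 without RBP2, which put both lines numbered 2 lower, by -0.32 with a standard error of 0.21. A dimmer Insig2 probe set gave 0.55 (standard error 0.41).

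On their brightest probe sets, the SREBP genes themselves did not separate by line number. Srebf2 had 9.12 and 8.31 in wild-type lines 1 and 2 and 8.34 and 8.53 in RBP2-null lines 1 and 2, so wild-type line 1 alone was high. Its line difference of -0.31 became 0.083 without that array. The other Srebf2 probe set had 7.86, 8.59, 8.20 and 8.30 in the same order, so wild-type line 1 was the lowest there. On it both lines numbered 2 lay above both lines numbered 1, as for 20.2% of all probe sets, by 0.41 with a standard error of 0.21. Srebf1 had 8.42, 8.18, 7.99 and 8.23 in the same order, with a difference of 0.0033 and an interval from -0.47 to 0.47. Scap, the sterol sensor, had 7.80, 8.01, 7.77 and 7.77, with a difference of 0.11 and an interval from -0.34 to 0.56.

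The fatty acid arm showed small line differences. Fasn, which assembles palmitate, and Acaca, which makes its malonyl-CoA, had -0.019 and 0.049, with standard errors of 0.16 and 0.21. Scd2 and Scd1, desaturases that put the first double bond into the chain, had 0.033 and -0.26. Both lines numbered 2 had less Scd1 signal on its brightest probe set, while the dimmer one had 0.43. Fads1 and Fads2, desaturases of polyunsaturated chains, had 0.19 and 0.16, and Elovl6, which lengthens palmitate, had 0.25 with an interval from -0.22 to 0.72. On the brightest probe sets, no interval of this arm left out 0, whereas that of the dimmer Fads2 probe set at 0.62 did.

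**Figure D3:**
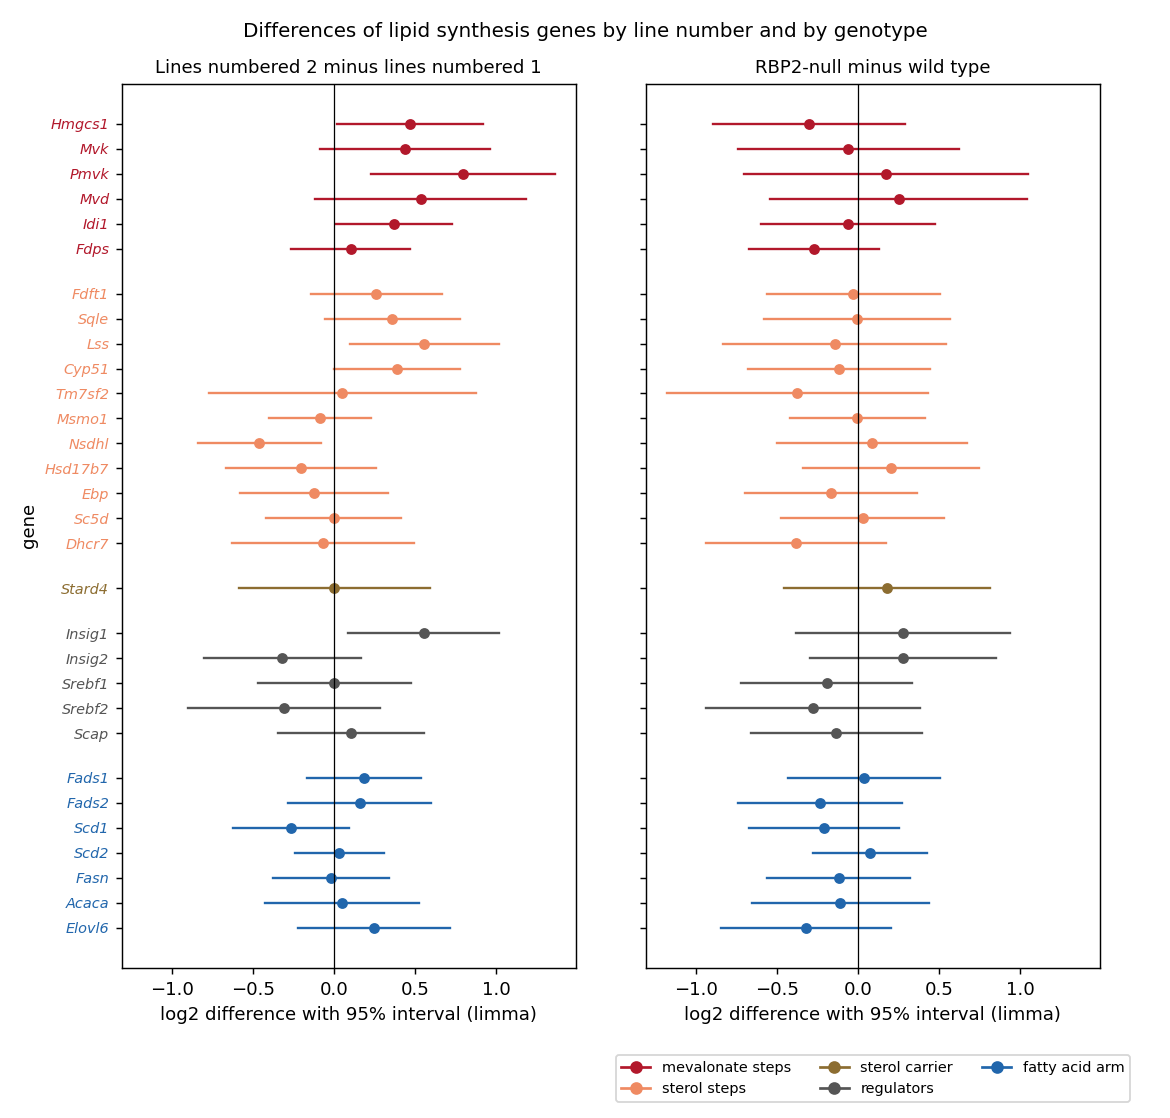
Log2 differences of the 30 members with 95% intervals from limma, by line number on the left and by genotype on the right, coloured by part of the pathway. By line number 6 intervals leave out 0, and by genotype none does.

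The pairs of lines allow the line difference to be read separately in each genotype, on different arrays. Both pairs had a difference above 0 for 15 of the 30 members and below 0 for 7, and the signs differed for 8. Over all probe sets, 27.4% were above 0 in both pairs and 28.1% below 0 in both, so that 55.5% had the same sign. The mevalonate steps had medians of 0.48 in the wild-type pair and 0.33 in the RBP2-null pair, with all 6 genes above 0 in both. Medians over all probe sets were 0.0020 and -0.011. The sterol steps had -0.068 and 0.088, and the fatty acid arm 0.052 and 0.051. Both lines numbered 2 lay above both lines numbered 1 for 11 members and below for 4, against 20.2% and 20.7% of all probe sets, or 41% in either direction. Across the 30 members the correlation of the pairs' differences was 0.26, against 0.11 over all probe sets. It is a description, since the pairs share no array but genes are not independent replicates.

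**Figure D4:**
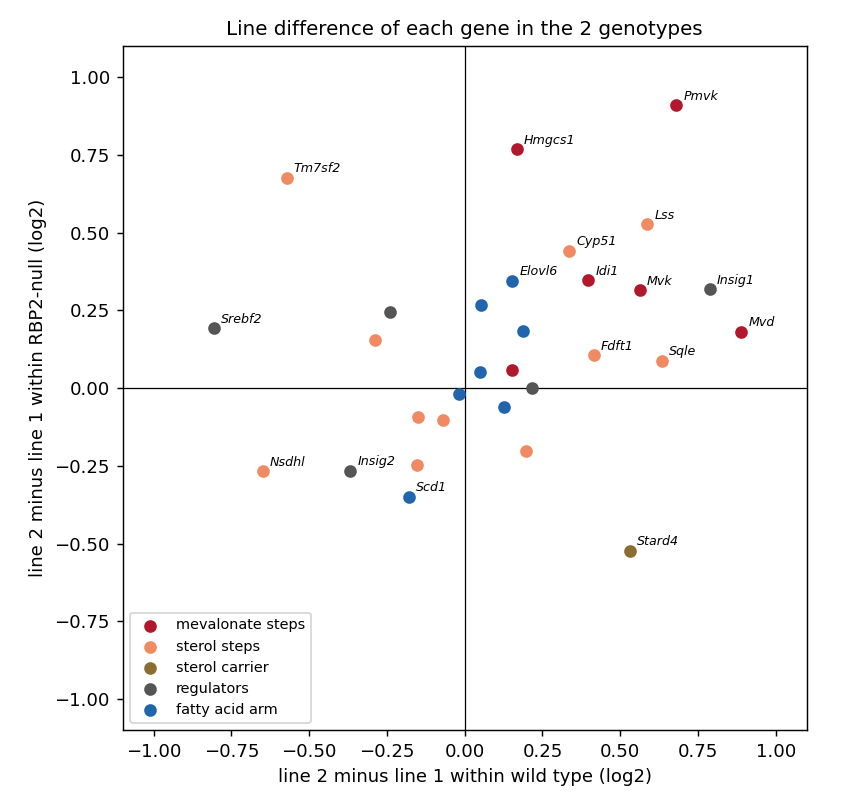
Line 2 minus line 1 (log2) of each member within wild type, on the horizontal axis, and within RBP2-null cells, on the vertical axis. Points above and to the right of 0, among them all 6 mevalonate genes, are higher in line 2 of both genotypes, and Tm7sf2 and Stard4 have opposite signs on the axes.

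Because both arrays of lines numbered 2 were brighter, the scaling bears on this comparison. Without scaling the median line difference over all probe sets was 0.73, and with arrays centred on their medians it was 0.19. Centring takes a constant from each array, so relative to these shifts it repeats the values without scaling and is no separate check. Relative to the shift the mevalonate steps had a median of 0.53, the sterol arm had 0.27 and the fatty acid arm had 0.16. Without the mevalonate steps, the sterol steps and Stard4 had 0.00068 after quantile normalization and 0.099 without it. The sign relative to the shift was the same with and without quantile normalization for 26 of 30 members, and Fasn, Dhcr7, Sc5d and Scd2 were the exceptions. Of the fibroblast markers, 9 of 12 had estimates above 0 in lines numbered 2 and 3 below, where 13516 of all 27022 probe sets lay above 0, and none passed the limma threshold, with a smallest adjusted p of 0.169 for Col3a1. Their summed normalized signal was 45506 and 45944 in lines numbered 1 and 49984 and 47603 in lines numbered 2. Pdgfra, a receptor of mesenchymal cells, had 5.72 and 8.93 in wild-type lines 1 and 2 and 7.47 and 8.84 in RBP2-null lines 1 and 2, and Lum, a matrix proteoglycan, had 5.52, 6.99, 6.29 and 8.29. Of the 6 macrophage markers above the filter, 5 had estimates below 0 in lines numbered 2, with a summed normalized signal over the 8 measured of 554 and 345 in lines numbered 1 and 407 and 372 in lines numbered 2. Endothelial markers split evenly, 2 above and 2 below 0, with Emcn at -1.93 (limma adjusted p of 0.217). Of the 7 epithelial markers, 6 lay above the filter, with 4 above and 2 below 0 by line number and 2 above and 4 below by genotype. The brightest, Epcam, had 9.25 and 8.65 in wild-type lines 1 and 2 and 8.30 and 8.90 in RBP2-null lines 1 and 2. The part of these marker differences in the values of the lipid genes was not tested, and fewer cells of a type and less RNA per cell cannot be told apart in bulk RNA.

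By genotype, no member of either arm passed the test. In limma 0 of the 30 members passed the threshold, 1 probe set or 0.0037% of the table passed, and 0 members had an unadjusted p under 0.05, against 2.98% of all probe sets. The median RBP2-null minus wild-type difference was -0.043 for the sterol arm, -0.12 for the fatty acid arm and -0.13 for the regulators, against 0.0031 over all probe sets. All 30 intervals held 0, and they ran from -1.18 at the lowest to 1.05 at the highest bound. Groups did not overlap for 9 members, 1 higher and 8 lower in RBP2-null cells, against 14.6% of all probe sets higher and 14.9% lower, or 29.5% in either direction. The smallest limma adjusted p of a member was 1.00.

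The lower values lay partly in the fatty acid arm, where 4 of 7 members had both RBP2-null lines below both wild-type lines, as had 14.9% of all probe sets. They were Fads2, Fasn, Acaca and Elovl6, with differences of -0.23, -0.12, -0.11 and -0.32. Elovl6 had 8.52 and 8.67 in wild-type cells, against 8.11 and 8.45 without RBP2, a difference with a standard error of 0.23. It was -0.15 without RBP2-null line 1, and other Elovl6 probe sets had 0.11 and -1.05. The dimmer Fads2 and Acaca probe sets had 0.056 and -0.008. For Fasn the value relative to the shift of all probe sets was 0.016 without scaling, so its sign depends on the scaling. Of the 8 macrophage markers, 6 lay above the filter. All 6 also had estimates below 0 in RBP2-null cells, as had 13398 of all 27022 probe sets. Between the lines numbered 2, Adgre1 and Fcer1g were higher without RBP2, by 0.18 and 0.17, and the rest of the 6 were lower. The summed normalized signal of the 8 was 554 and 407 in wild type and 345 and 372 in RBP2-null cells. The part of these markers in the values of the lipid genes was not tested.

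In the sterol arm the smallest unadjusted p by genotype belonged to Dhcr7, the last reductase of the route to cholesterol. It had 8.04 and 7.75 in wild-type cells, against 7.44 and 7.59 without RBP2, a difference of -0.38 (standard error 0.24, interval from -0.93 to 0.17). Fdps had 10.62 and 10.77 in wild type and 10.40 and 10.46 in RBP2-null cells, or -0.27 with a standard error of 0.17. Hmgcs1 had -0.30 on its brightest probe set, which was 0.083 without RBP2-null line 1, and its dimmer probe sets had 0.097, 0.30 and 0.14. Tm7sf2 had 6.85 and 6.28 in wild-type lines 1 and 2 and 5.85 and 6.53 in RBP2-null lines 1 and 2, or -0.37 with a standard error of 0.35, and was -0.036 without RBP2-null line 1. Its groups overlapped. Ebp had -0.17 and Hsd17b7 0.20, both with groups that did not overlap. The regulators Insig1, Insig2, Srebf1, Srebf2 and Scap had 0.28, 0.28, -0.19, -0.28 and -0.13. Insig1 had -0.12 and Srebf2 0.12 without wild-type line 1. A dim Fdft1 probe set gave -1.16 (standard error 0.50), while the brightest Fdft1 probe set had -0.027.

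Other genes of lipid supply and export were taken from a written list of 32, of which 26 had a named probe set and 24 lay above the filter. None passed the limma threshold in either comparison, with 1 at an unadjusted p under 0.05 by line number and 0 by genotype. By line number 14 lay above 0 and 10 below, with a median of 0.078. Acsl3, which activates fatty acids, had 0.69 with a standard error of 0.29, and Mbtps1, the protease that makes the first cut in the SREBPs, had 0.41 with a standard error of 0.19. Elovl5, an elongase of polyunsaturated chains, had 0.32, and Thrsp, a lipogenic nuclear protein, had -0.74. By genotype 12 lay above and 12 below 0, with Ggps1, which makes geranylgeranyl diphosphate, at 0.41 and the elongase Elovl1 at -0.29. Mylip, a ligase that targets lipoprotein receptors, had -0.37 and Thrsp had 0.63.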

How the data were processed

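The authors deposited linear signal intensity values for 4 arrays, 1 a probe set. The summary of probes and the background correction are not given in the sources used here. Control probe sets (64) were removed. Trimmed means of the arrays, leaving out 2% at each end, differed up to 2.46-fold, so the linear values were quantile normalized. A pseudocount of 9 was added before log2, which understates differences of dim probe sets, and the upper 60% by mean over the arrays (27022 of 45037) were tested with limma 3.58.1 (R 4.3.3), where lmFit was followed by eBayes with a mean-dependent prior variance. RBP2-null was compared with wild type, and lines numbered 2 with lines numbered 1, each as the only term, two-sided, with Benjamini-Hochberg adjustment over all tested probe sets. The procedure was tested on simulated data with planted differences larger than that of any member, so the test does not cover differences of the members' size. Symbols came from the platform annotation, updated by Entrez number through a RefSeq table. The members, lists and tests were chosen with earlier results of these data known. All members are named, and values on every array are given for the 6 smallest p-values in each comparison and for the regulators. Of the other listed genes, up to 4 with the smallest p in each comparison are named. Stard4, Pdgfra, Lum, Col3a1 and Emcn were singled out after their values were seen. Alternatives covered pseudocount, filter, scaling, choice of probe set, variance model, threshold, a further term and each array left out.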

Additional observations from a re-analysis of the deposited data

Results flagged for a closer look

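Tm7sf2, a reductase of the sterol ring, differed between the lines in opposite directions in the 2 genotypes. Line 2 minus line 1 was -0.57 in wild type and 0.68 in RBP2-null cells, from values of 6.85 and 6.28 in wild-type cells, against 5.85 and 6.53 without RBP2. Stard4, a carrier that moves cholesterol between membranes, had 0.53 in wild type and -0.52 in RBP2-null cells, from 8.02 and 8.55 in wild-type cells, against 8.73 and 8.21 without RBP2. Another Stard4 probe set had 7.50, 7.84, 7.88 and 7.52 in the same order, whereas the third had 7.57, 7.57, 7.47 and 7.25 and did not show opposite directions. These 2 genes were picked out because both differences were at least 0.5 in size with opposite signs. With 1 array for each genotype and line number the difference was not tested, and it cannot be told apart from the split by Xist, since wild-type line 1 and RBP2-null line 2 are the lines with high Xist. Tm7sf2 was higher, and Stard4 lower, in the lines with high Xist within each genotype.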

How the results depend on the processing

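The number of members past the threshold was 0 by genotype under all alternatives run, and 0 by line number except for 1 without scaling (Pmvk) and 1 without either wild-type line 1 (Hmgcs1) or RBP2-null line 1 (Insig1), a range of 0 to 1 over the arrays left out. The members at an unadjusted p under 0.05 by line number fell from 6 to 1 without wild-type line 2, to 1 without RBP2-null line 2 and to 2 with 1 prior variance, and were 13 without scaling. By genotype they went from 0 to 1 without wild-type line 2 and to 1 without RBP2-null line 2. Over all probe sets the calls by line number went from 1 to 630 without scaling, 226 without wild-type line 1, 1271 without RBP2-null line 1, 28 at a threshold of 0.10, 17 with median-centred arrays, 11 with a pseudocount of 32, 6 without _s_at and _x_at probe sets and 0 with 1 prior variance. By genotype they went from 1 to 42 without wild-type line 2, to 2 without wild-type line 1 or with median-centred arrays, and to 0 without the filter, without scaling, with 1 prior variance, with the mean of probe sets and without RBP2-null line 2. Without scaling the median line difference was 1.25 for the mevalonate steps, 1.00 for the sterol arm and 0.88 for the fatty acid arm, and with median-centred arrays it was 0.72, 0.47 and 0.35. By genotype the sterol arm, mevalonate steps and fatty acid arm had 0.45, 0.39 and 0.33 without scaling, and the sterol and fatty acid arms 0.25 and 0.13 with median-centred arrays. These include the shift of all probe sets, which by genotype was 0.38 and 0.18. The mevalonate median by line number was 0.40 with a pseudocount of 32, 0.51 with the mean of all kept probe sets and 0.40 to 0.50 with an array left out, and that of the sterol arm was 0.17 to 0.31. The fatty acid median by genotype was -0.073 with the mean of all kept probe sets. Nsdhl by line number was 0.37 without scaling, or -0.35 relative to the shift. With the replicate number as a block 0 members passed by genotype while all calls went from 1 to 49, and with genotype in the line fit 0 members passed while all calls went from 1 to 580. Pairing by number was not assumed, since no label states it and 2 pairs cannot show it, although the line differences of the genotypes had a correlation of 0.11 over all probe sets. The number of arrays and the dim probe sets limit precision, with a median standard error of 0.20 for members by line number and 0.24 by genotype.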
